A study of Mus musculus with 6 samples.

Results

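The genes described here are 39 that encode the digestive enzymes of the lysosome, the proteins of its membrane and the transcription factor TFEB, measured in mouse erythroid cells depleted of Mi2β. They were chosen by name and role, with earlier results of these data known. The set holds 12 proteases, 13 glycosidases or sulfatases, 7 lipid enzymes or lipid-handling proteins, 6 membrane proteins and Tfeb. Each gene was represented by the probe with the highest mean signal over the 6 arrays, provided that the scanner software called it well above background on at least 3 of them. By that rule 33 of the 39 were tested, among 22133 genes tested in all.

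The cells were G1E-ER-GATA-1, a mouse erythroid progenitor line without endogenous GATA-1, in which a GATA-1 fusion with the oestrogen receptor's hormone-binding part becomes active when oestradiol is added. In the knockdown group (3 samples) the siRNA was directed against Mi2β, the nucleosome-remodelling ATPase of the NuRD complex, which the gene Chd4 encodes. In the control group (3 samples) the siRNA was non-targeting. Both groups were nucleofected at 0 h and again at 24 h, both had β-estradiol for the last 24 h, and both were harvested at 48 h, so the GATA-1 fusion was active in the controls as well. The line is a single model, no cells without oestradiol were analysed here, and whether the replicates were separate cultures is not stated in the labels. The p-values therefore measure only how far these samples spread, and that spread may be technical.

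Lysosomes break down proteins, glycans and lipids in a lumen that a proton pump keeps acidic, and most of their soluble enzymes arrive through the mannose 6-phosphate pathway. Many lysosomal genes carry an E-box of the CLEAR element, to which TFEB and its relative TFE3 bind, and the kinase complex mTORC1 on the lysosome's surface holds these factors out of the nucleus. In maturing red cells lysosomes take part in the removal of mitochondria and other organelles by autophagy, and GATA-1 is known to activate autophagy and lysosomal genes in erythroid cells.

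The siRNA target was checked first. Chd4 stood at 4.62, 4.60 and 4.54 on the knockdown arrays, against 5.93, 6.00 and 5.75 on the control arrays, as log2 signal relative to the 75th percentile of each array. All knockdown arrays were lower, by a log2 change of -1.31 (SE 0.10, limma adjusted p = 0.00161). The share of spots well above background was 61.48%, 74.01% and 48.93% on the knockdown arrays, against 56.77%, 53.38% and 54.78% on the control arrays, and no spot was saturated. Among 10 erythroid markers all were tested, and 2 rose and 1 fell. Beside this and the marker counts below, 4.99% of all genes tested rose and 4.56% fell. Alas2, the first enzyme of haem synthesis in red cells, rose by 1.06, whereas Slc4a1, the band 3 anion exchanger, fell by 1.04, both on the log2 scale. The β-globin gene Hbb-bt rose by 0.81, with near-identical paralogues that a probe may not tell apart. Markers of other blood cells also moved with the knockdown. Of 5 tested mast cell markers 2 rose, the protease gene Mcpt4 by 2.70 and Hdc, the histamine-making enzyme, by 2.05, and the linear signal summed over the 7 listed (relative to the 75th percentile) was 3.42 to 3.94 on the knockdown arrays and 1.12 to 1.33 on the control arrays, with Ms4a2 and Fcer1a well above background on no array. Of 5 tested megakaryocyte markers 3 fell, the platelet genes Gp9 by 2.18, Pf4 by 1.62 and Gp1ba by 0.63. Itga2b, the integrin αIIb gene of the same list, differed by 1.51 in the other direction without overlap (adjusted p = 0.0508). The sum over the 7 listed was 15.8 to 20.1 on the knockdown arrays and 40.6 to 46.2 on the control arrays, with Ppbp well above background on no array. Of 6 tested macrophage markers 1 rose, Cd68, which is itself a lysosomal gene. Csf1r, of the same list, differed by -0.33 without overlap (limma adjusted p = 0.0744), and 3 of the 6 lay above 0 and 3 below. The sum over the 10 listed macrophage markers was 21.3 to 22.7 on the knockdown arrays and 17.2 to 22.0 on the control arrays. Lyz2, Mrc1 and Cybb were well above background on no array. None of 4 tested neutrophil markers passed the threshold in limma (0 at an unadjusted p under 0.05), and the sum over the 8 listed was 3.24 to 3.76 on the knockdown arrays and 2.85 to 4.27 on the control arrays, with Mpo and S100a8 well above background on no array. The part of these markers in the lysosomal changes was not tested. In such bulk RNA, fewer cells of a type and less RNA per cell cannot be told apart.

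After knockdown the lysosomal genes did not move as a block. Of the 33 tested, 5 rose, 3 fell and 25 did not pass the threshold, which was 0.05 on limma's p after Benjamini-Hochberg adjustment over all 22133 genes. The rises were the proteases Ctsl and Ctsz and the glycosidases Gusb, Neu1 and Glb1. The falls were the protease Ctsb and the membrane proteins Npc1 and Cln3. In all, 24.2% of the tested lysosomal genes passed the threshold, against 9.56% of all genes tested (4.99% rose and 4.56% fell) and 12.2% of the 14269 that carry a gene symbol. These shares depended on single arrays: 6.06% of the lysosomal genes against 3.67% of all genes passed without knockdown replicate 1, 6.06% against 5.25% without knockdown replicate 2, and 12.1% against 6.82% without knockdown replicate 3. They were 6.06% against 4.8% without control replicate 1, 9.09% against 5.2% without control replicate 2, and 12.1% against 7.13% without control replicate 3. With array median scaling the lysosomal share was the lower, 0% against 3.75%. The knockdown and control arrays did not overlap in 15 of the 33 genes, higher in 10 and lower in 5. Among all 22133 genes tested 31.1% did not overlap, higher in 2807 and lower in 4066. At an unadjusted p under 0.05 by limma, 7 of the 33 were higher and 4 lower, against 2326 and 2969 of the 22133. The median log2 change was 0.02 over the 33 and -0.03 over all genes tested.

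**Figure D1:**
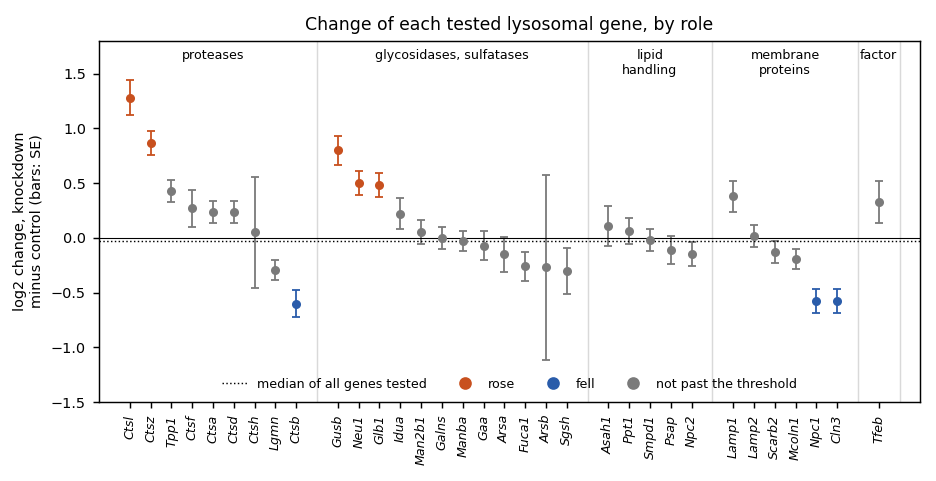
Log2 change, knockdown minus control, of each of the 33 tested lysosomal genes, grouped by role, with bars of 1 SE from 3 arrays per group. Orange points rose, blue points fell, grey points did not pass the threshold, and the dotted line is the median of all genes tested (-0.03).

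The promoters of these genes were read from RefSeq (GRCm38.p6), as windows of 250 bases before to 50 after each annotated start, and 34 of the 39 genes had an entry. Asah1, Ctsb, Ctsh, Galns and Npc1 had none. The E-box core CACGTG, which reads the same on both strands, was found in 12 of the 34 genes (35.3%), against 8.09% of the 27025 genes in the table and 1205 of the 11290 tested genes that have an entry. The longer form TCACGTG, searched on both strands and overlapping the core, was found in 10 of the 34 (29.4%), against 4.29% of all genes in the table and 6.1% of the tested genes with an entry. The GATA word AGATAA, also searched on both strands, was found in 4 (Arsb, Ctsz, Npc2 and Psap; 11.8%), against 12.7% of all genes in the table and 9.22% of the tested genes with an entry, so that the order depends on the background. A match is a description of letters, not evidence of binding. The stretches printed here lie upstream of the annotated start, 5′ to 3′ on the gene's own strand. They are shown because they belong to risen genes (Ctsl, Glb1, Ctsz), to a fallen gene (Cln3), and to genes dense in E-boxes that did not pass the threshold (Lamp1, Mcoln1) or hold both of their copies far apart (Ctsd, nearer copy shown). Capitals mark CACGTG, and in Ctsz the GATA word as it reads on that strand.
Ctsl, chr13:64370721-64370770, - strand: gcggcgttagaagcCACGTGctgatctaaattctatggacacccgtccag
Glb1, chr9:114401000-114401065, + strand: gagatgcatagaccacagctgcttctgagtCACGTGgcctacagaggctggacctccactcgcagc
Ctsz, chr2:174439060-174439125, - strand: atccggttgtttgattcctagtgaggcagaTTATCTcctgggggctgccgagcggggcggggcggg
Cln3, chr7:126583322-126583415, - strand: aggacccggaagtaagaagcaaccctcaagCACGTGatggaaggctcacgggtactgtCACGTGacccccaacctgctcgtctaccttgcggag
Lamp1, chr8:13159070-13159160, + strand: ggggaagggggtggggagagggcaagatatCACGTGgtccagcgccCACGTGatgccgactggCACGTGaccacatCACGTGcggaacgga
Mcoln1, chr8:3500418-3500509, + strand: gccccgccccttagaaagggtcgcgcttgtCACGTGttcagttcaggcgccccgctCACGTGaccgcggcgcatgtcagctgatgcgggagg
Ctsd, chr7:142387890-142387955, - strand: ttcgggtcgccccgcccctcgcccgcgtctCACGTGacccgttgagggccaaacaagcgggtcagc

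Counted back from the annotated start, the E-box of Glb1 begins at -48 and that of Ctsl at -236. Lamp1 holds 4 copies, beginning at -61, -45, -28 and -15. Those of Mcoln1 begin at -71 and -45. In Cln3 they begin at -149 and -121, in the window of its downstream annotated start. Arsa, Ctsa, Ctsf, Gaa, Lgmn and Sgsh also hold the core. Of the 12 tested genes with the E-box core, 2 rose (Ctsl and Glb1), 1 fell (Cln3), and the median log2 change was 0.08, with a range of -0.58 to 1.28. Of the 16 tested genes whose window lacks it, 3 rose (Ctsz, Gusb and Neu1), 0 fell, and the median was 0.04, with a range of -0.27 to 0.87. Ctsb and Npc1, which fell, have no entry and are in neither set. Of all genes tested, 4.99% rose and 4.56% fell, and no test was made of this split.

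The proteases held the largest change of the whole set. Ctsl encodes cathepsin L, a cysteine endopeptidase, and was read by a probe at 64465287 to 64465346 of chromosome 13 (mm9, the build of the array files). Ctsl stood at 0.73, 0.33 and 0.48 on the knockdown arrays, against -0.87, -0.54 and -0.89 on the control arrays, in log2 signal relative to the 75th percentile. All knockdown arrays lay above all control arrays, by a gap of 0.87. The log2 change was 1.28 (SE 0.16), which is 2.43-fold, with a limma adjusted p = 0.00654. Ctsz encodes cathepsin Z, a carboxypeptidase (chromosome 2, 174253228 to 174253287). Its values were 5.22, 4.99 and 5.08 on the knockdown arrays, against 4.22, 4.32 and 4.14 on the control arrays. The groups were apart by 0.67, and Ctsz rose by 0.87 (SE 0.11), or 1.82-fold, with an adjusted p = 0.00661. Ctsl and Ctsz also passed the threshold in each of the 6 fits that left out 1 array, with adjusted p of 0.0171 to 0.0363 for Ctsl and 0.0211 to 0.0413 for Ctsz.

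Another protease went the other way. Ctsb, cathepsin B, is a cysteine protease like cathepsin L (probe on chromosome 14, 63761906 to 63761965). It stood at 4.19, 4.23 and 4.40 on the knockdown arrays, against 4.89, 5.02 and 4.69 on the control arrays. Every knockdown array was below every control array, with a gap of 0.29 between replicate 3 of each group. Ctsb fell by 0.60 on the log2 scale (SE 0.12), or 1.51-fold, with an adjusted p = 0.0383. Leaving out 1 array kept that call in 1 of 6 fits, without control replicate 3, and adjusted p ran from 0.0411 to 0.158.

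Among the other proteases, Tpp1, the tripeptidyl peptidase lost in a childhood form of neuronal ceroid lipofuscinosis, came nearest to the threshold. Tpp1 averaged 2.73 ± 0.04 on the knockdown arrays and 2.31 ± 0.13 on the control arrays (SD, n = 3 each). The groups did not overlap, the log2 difference was 0.43 (95% interval 0.17 to 0.68), and the adjusted p was 0.0578 by limma. The asparaginyl endopeptidase gene Lgmn averaged 2.55 ± 0.02 on the knockdown arrays and 2.84 ± 0.08 on the control arrays (SD, n = 3 each), also without overlap, with an adjusted p = 0.115. Ctsa, the protective protein of a complex with β-galactosidase and neuraminidase, and Ctsd, an aspartic protease, each had a log2 difference of 0.24 with no overlap between groups, and adjusted p of 0.214 and 0.23. Ctsf had a difference of 0.27, with overlap. Ctsh was too variable to place: knockdown replicate 2 stood at -2.95, against -4.47 and -4.94 on the other knockdown arrays and -4.40 to -4.05 on the control arrays. The median over the 9 tested proteases was 0.24, and over 18 alternative settings it ran from 0.01 with array median scaling to 0.32 with quantile normalization. Set against the median of all genes in the same setting, it ran from 0.19 to 0.37. The cathepsin genes Ctsc, Ctsk and Ctss, known for high expression in immune cells or osteoclasts, were not tested. Ctsc and Ctss were well above background on 1 knockdown array and no control array, and Ctsk on no array.

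**Figure D2:**
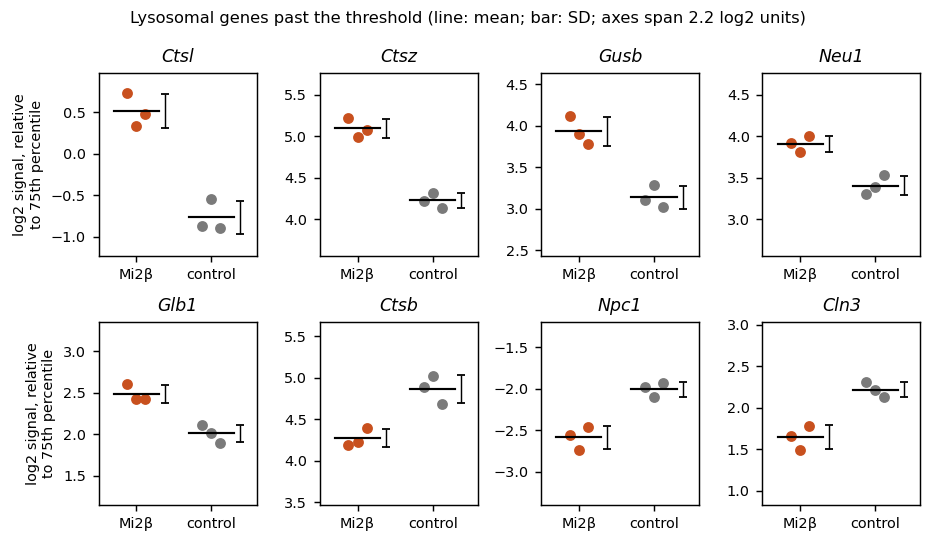
Log2 signal relative to the array's 75th percentile for the 8 lysosomal genes past the threshold, with the 3 Mi2β siRNA arrays left and the 3 control siRNA arrays right in each panel. Lines are means and bars are SDs; the groups do not overlap in any panel, with the widest gap in Ctsl (0.87) and the narrowest in Neu1 (0.28).

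Of the 13 genes for glycosidases and sulfatases, 12 were tested, 3 rose and 0 fell by limma (0 lower at an unadjusted p under 0.05). The 3 rises are 25% of those tested, against 4.99% of all genes tested. Gusb encodes β-glucuronidase, which acts on glycosaminoglycans (chromosome 5, 130465133 to 130465192). Gusb stood at 4.12, 3.90 and 3.78 on the knockdown arrays, against 3.11, 3.29 and 3.02 on the control arrays. The groups were apart by 0.49, and the log2 change was 0.80 (SE 0.13), or 1.74-fold, with an adjusted p = 0.0177. A second, dimmer Gusb probe differed by 0.44, with a probe-level adjusted p = 0.254, and the mean over both probes ended the call (change 0.62, adjusted p = 0.0695).

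Neu1 encodes the lysosomal sialidase, which removes terminal sialic acid (chromosome 17, 35072105 to 35072164). It stood at 3.92, 3.81 and 4.0 on the knockdown arrays, against 3.30, 3.39 and 3.53 on the control arrays, so each knockdown array was above each control array by at least 0.28. Neu1 rose by 0.50 (SE 0.11), or 1.42-fold, with an adjusted p = 0.0407. Glb1 encodes the lysosomal β-galactosidase (chromosome 9, 114383136 to 114383195) and carries the E-box printed above. Its values were 2.61, 2.42 and 2.43 on the knockdown arrays, against 2.11, 2.02 and 1.90 on the control arrays. Glb1 rose by 0.48 (SE 0.11), or 1.39-fold, with an adjusted p = 0.0472, and the groups were apart by 0.31. Both calls were close to the threshold and were lost in each fit that left out 1 array, with adjusted p of 0.0528 to 0.162 for Neu1 and 0.0953 to 0.184 for Glb1. Gusb kept its call in 2 of these 6 fits, without knockdown replicate 3 or without control replicate 2.

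The remaining glycosidases and sulfatases had log2 differences of -0.30 to 0.22. Idua, which acts on heparan and dermatan sulfate, stood at 4.02 to 4.03 on the knockdown arrays and at 3.53 to 3.94 on the control arrays, without overlap, with an adjusted p = 0.393. Galns, a sulfatase of keratan sulfate, averaged 0.87 in both groups, with a 95% interval of -0.25 to 0.25 for the difference. The mannosidase genes Man2b1 and Manba differed by 0.05 and -0.03. Fuca1, the fucosidase, differed by -0.26, Gaa, the acid α-glucosidase that degrades glycogen, by -0.07, and Arsa, the sulfatase of sulfatides, by -0.15. Sgsh, a sulfatase of heparan sulfate, stood at 6.28 to 6.36 on the knockdown arrays, against 6.80, 6.90 and 6.16 on the control arrays, and its second probe differed in sign (0.20 against -0.30). Without control replicate 3, Sgsh passed the threshold (adjusted p = 0.0481). Arsb was set by 1 array: control replicate 2 stood at -1.81, while the other control arrays were at -4.55 and -4.65 and the knockdown arrays at -4.52 to -3.13. Hexa, the α subunit of β-hexosaminidase, was well above background on no knockdown array and 1 control array, and was not tested.

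The genes that handle lipids showed the smallest differences. Of the 7, 5 were tested and 0 passed the threshold by limma (0 at an unadjusted p under 0.05), against 9.56% of all genes tested. Their log2 differences were -0.15 to 0.11, with overlapping groups in each. Smpd1, acid sphingomyelinase, averaged 4.85 ± 0.11 on the knockdown arrays and 4.87 ± 0.08 on the control arrays (SD, n = 3 each), and the 95% interval of the difference was -0.27 to 0.23. Psap, the precursor of the saposins that help enzymes reach sphingolipids, differed by -0.11 (-0.42 to 0.20). Npc2, which carries cholesterol in the lumen, differed by -0.15 (-0.43 to 0.13). Ppt1, a thioesterase that removes palmitate from proteins, differed by 0.06, and Asah1, acid ceramidase, by 0.11. These intervals leave room for rises of the size seen in Neu1 and Glb1 only for Asah1 (-0.32 to 0.54). Gm2a, the activator of ganglioside breakdown, and Lipa, the acid lipase, were well above background on no array.

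**Figure D3:**
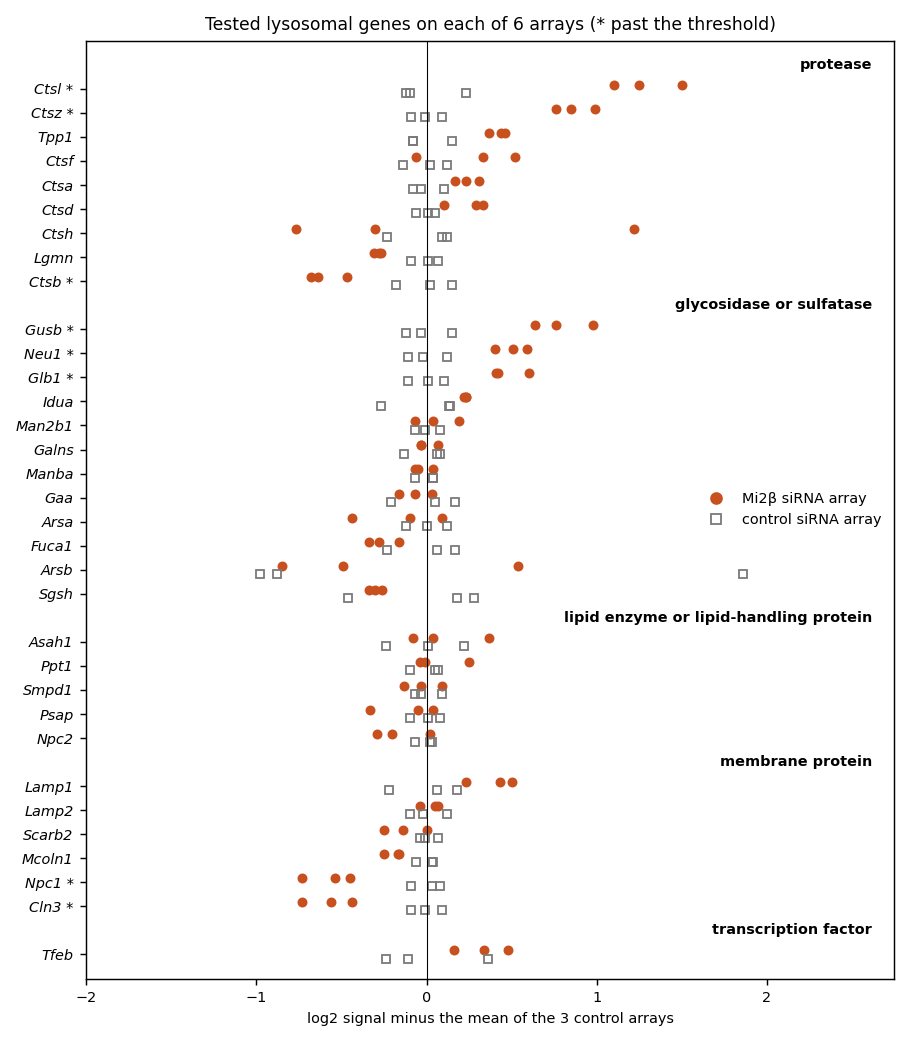
Log2 signal of each of the 33 tested lysosomal genes on each array, minus the mean of the 3 control arrays. Filled circles are Mi2β siRNA arrays and open squares are control siRNA arrays, drawn above and under each other in each row; asterisks mark the 8 genes past the threshold, and Ctsh and Arsb show the widest spread.

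Of the 6 membrane protein genes 2 fell, against 4.56% of all genes tested. By limma 0 rose (1 higher at an unadjusted p under 0.05), against 4.99% of all genes tested. The calls of 2 genes do not set a direction for the class. Npc1 encodes the membrane transporter that takes cholesterol from Npc2 and passes it out of the lysosome. Npc1 stood at -2.55, -2.74 and -2.46 on the knockdown arrays, against -1.98, -2.10 and -1.93 on the control arrays. All knockdown arrays were lower than all control arrays, by at least 0.35. Npc1 fell by 0.58 on the log2 scale (SE 0.11), or 1.49-fold, with an adjusted p = 0.033. Cln3 encodes a lysosomal membrane protein lost in juvenile neuronal ceroid lipofuscinosis (chromosome 7, 133715596 to 133715655). Cln3 stood at 1.66, 1.49 and 1.78 on the knockdown arrays, against 2.31, 2.21 and 2.13 on the control arrays, a gap of 0.36. It fell by 0.58 (SE 0.11), or 1.49-fold, with an adjusted p = 0.0321. All 3 Cln3 probes were lower, with log2 differences of -0.58, -0.84 and -0.59 and probe-level adjusted p of 0.0387, 0.0323 and 0.0452. Leaving out 1 array, Cln3 kept its call in 1 of 6 fits, without knockdown replicate 3, with adjusted p of 0.0486 to 0.128. Npc1 kept its call in 0 of 6, with adjusted p of 0.0524 to 0.125. With normexp its change was -0.34, and with quantile normalization it lost the call (change -0.70, adjusted p = 0.0956).

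The other 4 membrane protein genes did not pass the threshold. Lamp1, the abundant glycoprotein that lines the lysosomal membrane, stood at 7.90, 7.70 and 7.97 on the knockdown arrays, against 7.53, 7.65 and 7.25 on the control arrays. The arrays did not overlap, but the gap was 0.05, and the difference of 0.38 had an adjusted p = 0.176. It was 0.21 in the first row of the slide and 0.72 in the second. Lamp2, the related protein that also serves chaperone-mediated autophagy, differed by 0.02 (95% interval -0.22 to 0.27). Scarb2, a transmembrane protein that also serves as a sorting receptor, differed by -0.13. Mcoln1, the calcium channel whose opening activates TFEB, averaged 3.21 ± 0.05 on the knockdown arrays and 3.40 ± 0.06 on the control arrays (SD, n = 3 each), with no overlap and an adjusted p = 0.253. Over the 6 genes the median change was -0.16, and it ran from -0.40 to -0.08 over the 18 alternatives, or from -0.21 to -0.03 relative to the median of all genes.

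Tfeb itself was not shown to change. It stood at -1.03, -1.17 and -1.35 on the knockdown arrays, against -1.15, -1.75 and -1.62 on the control arrays, and the groups overlapped. Its log2 difference of 0.33 (95% interval -0.13 to 0.78) had an adjusted p = 0.363. Tfe3 averaged 4.71 ± 0.11 on the knockdown arrays and 5.01 ± 0.13 on the control arrays (SD, n = 3 each), a difference of -0.30 with an adjusted p = 0.175. In the list of the other MiT/TFE factors and of the mTORC1 machinery, 17 of 20 genes were tested. By limma 0 rose and 0 fell (1 higher and 3 lower at an unadjusted p under 0.05), against 9.56% of all genes past the threshold. At that unadjusted p, 2326 of all 22133 genes tested were higher and 2969 lower. The array measures RNA, so the phosphorylation and location of these factors were not measured.

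The wider lysosome was described with lists of genes outside the 39, also chosen with earlier results of these data known. Of 29 tested other hydrolases, 3 rose and 5 fell (27.6%, against 9.56% of all genes tested), with a median of -0.08. Scpep1, a serine carboxypeptidase, stood at -0.41, -0.52 and -0.35 on the knockdown arrays, against 1.53, 1.53 and 1.40 on the control arrays. Scpep1 fell by 1.91 on the log2 scale (SE 0.10), or 3.77-fold, with an adjusted p = 0.000447, a larger change than any among the 39. Naglu, an enzyme of heparan sulfate breakdown, fell by 1.03 and Siae, which removes acetyl groups from sialic acid, by 0.87. Acp5, the tartrate-resistant acid phosphatase, fell by 0.81 and is named here after its value was seen. Arsg, a sulfatase of heparan sulfate, rose by 1.24, Hgsnat, the membrane acetyltransferase of the same route, by 0.70, and Dpp7, a dipeptidyl peptidase, by 0.59. The steps of heparan sulfate breakdown thus held risen genes (Arsg, Hgsnat, Gusb), a fallen gene (Naglu) and genes not past the threshold (Idua, Sgsh), a grouping made after the values were seen.

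Of 25 tested genes in the list of other lysosomal membrane proteins, 1 rose and 3 fell (16.0%, against 9.56%). Cd68, a glycoprotein abundant in macrophages, stood at 1.19, 1.14 and 1.10 on the knockdown arrays, against 0.76, 0.55 and 0.54 on the control arrays, and rose by 0.53 (adjusted p = 0.0305). The ion channel gene Tmem175 fell by 0.66 and Tmem63a by 0.55. Cd63 differed by 0.06 and did not pass. The proton pump showed no member past the threshold, against 9.56% of all genes tested. Of 18 tested V-ATPase genes 0 rose and 0 fell by limma (4 higher and 3 lower at an unadjusted p under 0.05). Their log2 differences were -0.37 to 0.42. At that unadjusted p, 2326 of all 22133 genes tested were higher and 2969 lower, which is also the background for the delivery list. Of 23 genes of delivery to lysosomes 1 rose (4.35%, against 9.56%), Gga2, an adaptor for mannose 6-phosphate receptors, by 0.57 (adjusted p = 0.0197), and 0 fell (5 lower at an unadjusted p under 0.05).

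**Figure D4:**
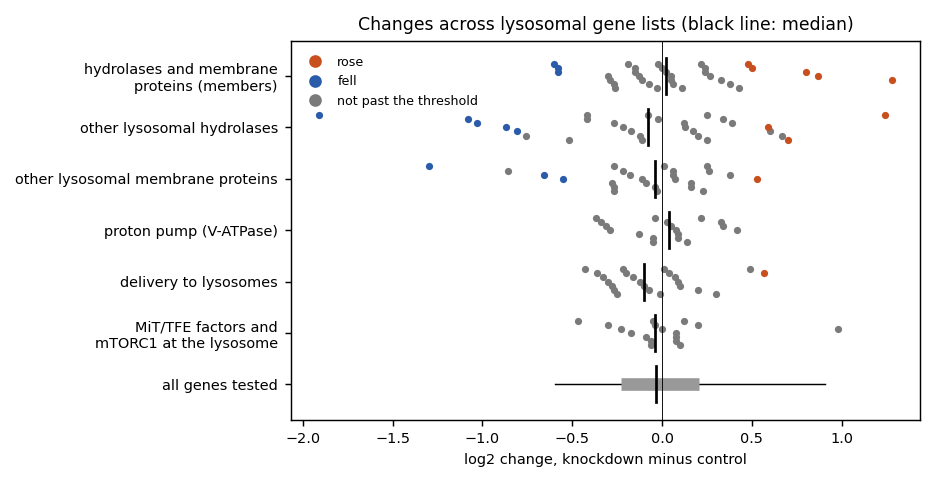
Log2 change, knockdown minus control, of each tested gene in the 39-gene set and in 5 further lysosomal lists, with a black line at each median. In the bottom row the grey bar spans the 25th to 75th percentile of all genes tested (-0.23 to 0.21) and the thin line the 5th to 95th (-0.59 to 0.91); orange points rose and blue points fell.

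The arrays lay on 1 slide, with replicates 1 and 2 of each group in its first row and replicate 3 of each group in its second. With the row as a block, 4 of the lysosomal genes rose and 1 fell (15.2%, against 8.14% of all genes tested). The rises were Ctsl, Ctsz, Gusb and Neu1, and the fall was Npc1 (limma adjusted p = 0.043). Glb1, Ctsb and Cln3 lost their calls there, with adjusted p of 0.0643, 0.068 and 0.0595. Within the first row alone, where each group has 2 arrays, 0 passed the threshold by limma, against 3.25% of all genes tested. The adjusted p there was 0.072 for Ctsl, 0.0728 for Ctsz and 0.0688 for Ctsb. In the second row each group has 1 array, so there is no test. In each of the 8 genes the groups did not overlap, so the sign there had to be that of the first row. Only the sizes could differ. The differences were 1.24 in the first row and 1.36 in the second for Ctsl, and 0.83 and 0.93 for Ctsz. They were 0.81 and 0.76 for Gusb, 0.52 and 0.47 for Neu1, and 0.45 and 0.53 for Glb1. For the genes that fell they were -0.75 and -0.29 for Ctsb, -0.60 and -0.53 for Npc1, and -0.69 and -0.36 for Cln3. Over 18 alternative settings, 0 of the 8 genes turned sign, but many of these settings could not turn it. Groups that do not overlap keep their sign when arrays are left out. The blocks, the detection filters and the intensity trend left the changes of these genes as they were. The number past the threshold ranged widely, as the bar chart of calls shows for all settings but the replicate block. Array median scaling moved the median of all genes to -0.27 and left 0 of the 33 past the threshold, against 3.75% of all genes tested. Relative to that median the changes were 1.32 for Ctsl, 0.90 for Ctsz, 0.83 for Gusb, 0.54 for Neu1 and 0.51 for Glb1. They were -0.56 for Ctsb, -0.54 for Npc1 and -0.54 for Cln3.

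**Figure D5:**
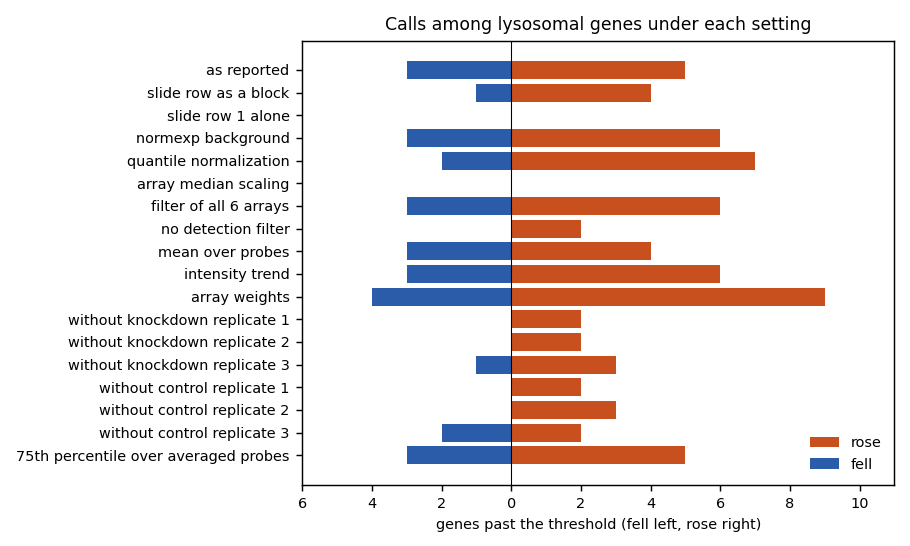
Number of lysosomal genes past the threshold under settings as labelled, with genes that rose to the right in orange and genes that fell to the left in blue. The setting as reported gives 5 and 3, against 9.56% of all genes past the threshold. Array weights give 9 and 4, against 21.4%. Slide row 1 alone and array median scaling give 0 and 0, against 3.25% and 3.75%. The replicate block, which also gave 0 and 0, is not drawn.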

How the data were processed

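RNA from 6 samples was labelled with Cy3 and hybridised to 1-colour Agilent arrays, 1 sample each. The deposited files hold linear spot intensities from Agilent Feature Extraction 10.7.3.1, background-subtracted and not normalized between arrays, per the file headers. The value table that the authors deposited gives these intensities again (100% within 0.005) and served only as a check.

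Control spots and flagged spots were left out, and spots of a probe were averaged. The processed signal was taken to log2 and scaled by subtracting each array's 75th percentile. A probe had to be well above background on 3 or more of the 6 arrays, and the brightest stood for its gene. Gene names were updated through the RefSeq table of GRCm38.p6 (27509 of 29150 accessions matched). Groups were compared with no covariate by a two-sided moderated test (limma 3.58.1, R 4.3.3). The p-values were adjusted over 22133 genes by Benjamini-Hochberg, with a threshold of 0.05. "Rose" and "fell" mean past it. An exact permutation test of 3 against 3 cannot go below p = 0.1. The number of arrays limits the precision. In 10 simulated data sets with the means of these genes and the spreads that limma's moderated test gave them, 200 of the 22133 genes were changed. The fit recovered 2.55%, 43.8% and 88.2% of those changed 1.5-, 2- and 4-fold. In the real comparison 2115 genes passed the threshold. The adjustment is stricter where fewer genes change, so on that count these shares may be too low for the real comparison. The simulated noise was normal and independent between genes, with no deviation shared across an array. The effect of that on the shares was not tested.

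The members and lists were chosen with earlier results of these data known. Every member is named; 6 array values are given for those past the threshold or with groups at least 0.25 apart; other lists give up to 4 genes per direction by size of change, plus Chd4, Cd68, Cd63 and Tfe3. Some genes under this rule are counted but not reported here. Values given for Tpp1, Lgmn, Lamp1, Tfeb and Sgsh beyond this were picked after they were seen. Alternatives covered blocks, background correction, scaling, filters, probe choice, variance models and leaving out each array.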

Additional observations from a re-analysis of the deposited data

How the results depend on the processing

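All 8 called lysosomal genes kept their direction in all 18 alternatives, though many of these could not turn it, and Chd4 kept its call in each. Ctsl and Ctsz lost theirs in 3: the replicate block, slide row 1 alone and array median scaling. Gusb lost its call in 9, Ctsb, Neu1 and Cln3 in 10, and Glb1 and Npc1 in 11. Replicate numbers did not pair the samples (deviations of same-numbered arrays correlated at 0.206, -0.319 and 0.132), and with the replicate block 0 lysosomal genes rose and 0 fell, 1 and 3 among the other lysosomal genes, and 502 and 183 among all genes, against 1105 and 1010 (0% of lysosomal genes against 3.09% of all). Counts that moved by over 1.5 times, given as rises then falls, were 0 and 0 in slide row 1 alone and with array median scaling, and 2 and 0 with no detection filter. The shares of all genes in these settings were 3.25%, 3.75% and 2.84%. Array weights gave 9 rises (39.4% of lysosomal genes past the threshold, against 21.4% of all genes). The slide row as a block gave 1 fall (15.2% past the threshold, against 8.14%). Leaving out 1 array gave 2 to 3 rises and 0 to 2 falls: 2 and 0 without knockdown replicate 1, knockdown replicate 2 or control replicate 1, 3 and 1 without knockdown replicate 3, 3 and 0 without control replicate 2, and 2 and 2 without control replicate 3. Of all genes, 3.67% to 7.13% passed when 1 array was left out. For the other lysosomal genes (5 rises, 8 falls) the counts were 0 and 3 in slide row 1 alone, 9 and 13 with normexp, 0 and 4 with array median scaling, 0 and 4 with no detection filter, 10 and 14 with an intensity trend, and 13 and 19 with array weights. The shares of all genes were 13.9% with normexp, 14.9% with an intensity trend and 21.4% with array weights. There were 3 rises with the slide row as a block and 9 with quantile normalization, where 8.14% and 11.5% of all genes passed. Leaving out 1 array gave 1 to 3 rises and 4 to 6 falls of these other genes. Calls over all genes ranged from 2.84% with no detection filter, which adds probes to the test, to 21.4% with array weights; other causes were not tested. The 75th percentile over averaged probes, chosen after seeing the data, gave 5 and 3. Probes near background, such as those of Ctsh and Arsb, limit what can be said of dim genes. The called fall of Npc1 also rests on 1 probe of low signal, with means of -2.58 on the knockdown arrays and -2.01 on the control arrays. That probe was well above background on all 6 arrays.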
